A study of Ciona savignyi with 56 samples.

Results

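The run described here is a block of 42 genes of the ascidian Ciona savignyi, a sea squirt, whose Ensembl identifiers follow each other without a gap from ENSCSAVG00000012479 to ENSCSAVG00000012520, out of 12172 genes in the count matrix. The members were chosen as all genes with an identifier number at most 30 away from ENSCSAVG00000012509, the gene with the most counts in the matrix, so the abundance of that gene is what selected them and is given here as a description. ENSCSAVG00000012520 is also the last identifier of the matrix, which is why the run ends there. Together the 42 genes held 13.0% of all counts deposited. Below, a member is called by the last 5 digits of its identifier (gene 12509).

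Single blastomeres (early embryonic cells) of 31 embryos were picked by capillary after dissociation and made into Smart-seq2 cDNA with barcoded primers, giving 773 cells. The 29 untreated embryos were at the 1-cell (8 embryos), 2-cell (5), 4-cell (3), 8-cell (3), 16-cell (2), 32-cell (2), 64-cell (3) and 110-cell (3) stages, and 2 further embryos reached the 64-cell stage in sea water with 2 µg/ml U0126, an inhibitor of the kinase MEK that blocks FGF signalling. All animals were collected from the wild and no strain or genotype is given. Column totals equalled read numbers for the 1-, 8-, 16- and 32-cell stages and the U0126 embryos (255 cells). For the 2-, 4-, untreated 64- and 110-cell stages (518 cells) they equalled numbers of unique molecular identifiers (UMIs, tags that count molecules once). Stages and classes were therefore tested against each other only within each kind of count. Percentages of all counts or of the run's counts, and mean levels and ranks over the 31 embryos, pool both kinds. The stage tests used 1 fit of all untreated embryos, in reads and in UMIs.

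In ascidians the fate of each early blastomere is nearly fixed, and blastomeres carry lineage names: A and a cells are anterior, B and b cells posterior, with capitals for the vegetal side. The egg holds a mitochondria-rich cortical cytoplasm, the myoplasm, which moves to the posterior side after fertilisation and is passed to the B cells that form tail muscle. Transcripts of mitochondrial genomes are commonly among the most abundant polyadenylated RNAs of a cell. The sources used here give no names, sequences or lengths for these identifiers, so whether the run is the mitochondrial genome could not be checked, and the genes are described without roles.

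Levels within the run were very unequal and did not follow the order of the identifiers. Averaged over the 31 embryos as CPM (counts scaled to the same total in each embryo, the share of a gene in the counts of an embryo, not corrected for gene length), 8 members exceeded 1000 CPM, 10 lay between 100 and 1000, 9 between 10 and 100, and 15 at 10 CPM or less. Gene 12479 had no count in any of the 773 cells. Its neighbours 12480, 12481 and 12482 had 22, 2 and 3 counts in the whole matrix, and then the level stepped up to 8298 CPM at gene 12483. The 5 identifiers just below the range, ENSCSAVG00000012474 to ENSCSAVG00000012478, had 0, 22, 69, 2 and 0 counts, so the edge of the abundant stretch lies inside the range and not at its lower bound. At the other end gene 12519 averaged 27.1 CPM and gene 12520 had 7 counts in 2 cells.

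**Figure D1:**
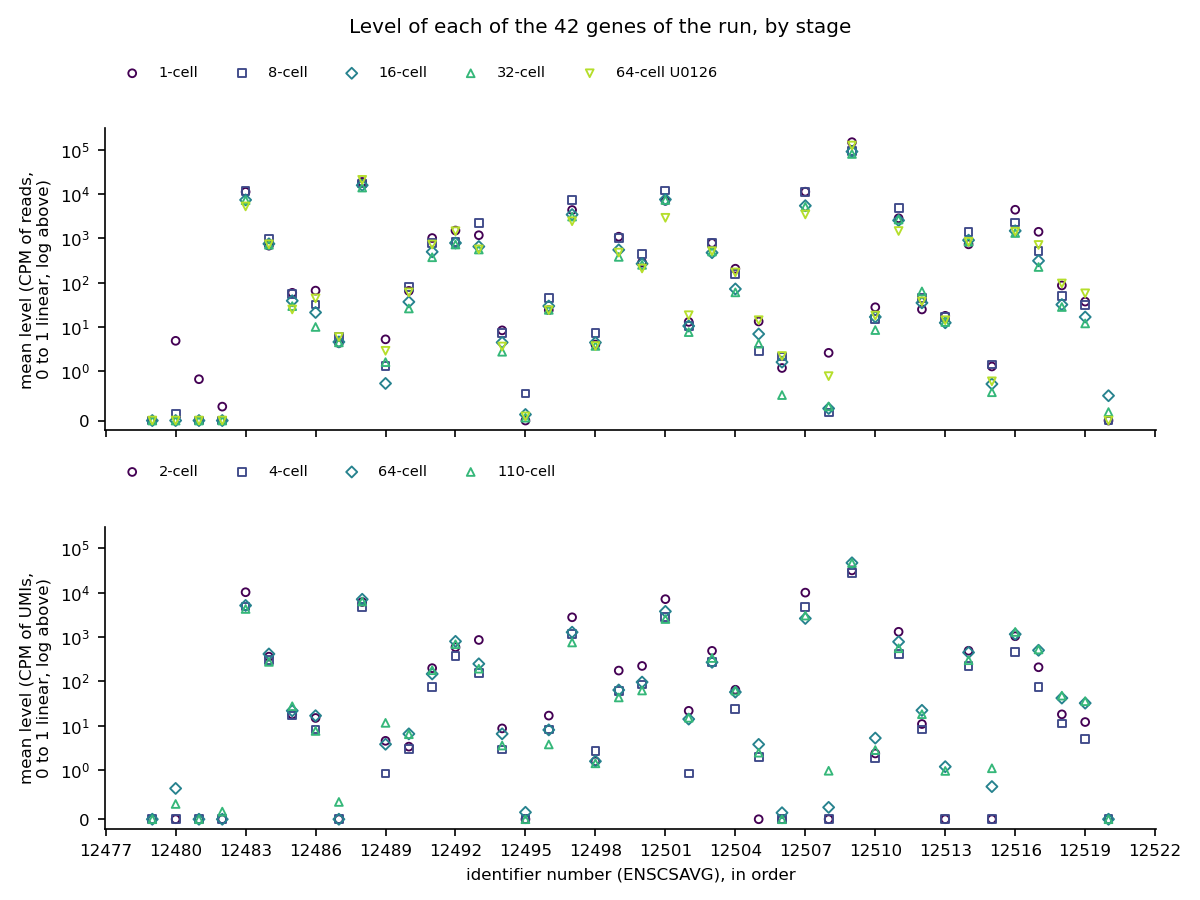
Mean level of each member (CPM over the embryos of a stage, linear from 0 to 1 and logarithmic above) in identifier order, with the stages in reads above and those in UMIs below. Gene 12509 is the highest in every stage, and very low members stand between abundant ones throughout.

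The 10 most abundant members held 97.0% of the run's counts. ENSCSAVG00000012509 averaged 82859 CPM and ranked first of all genes in the matrix, and with 66.9% of the run's counts it set most of what the run as a whole showed. ENSCSAVG00000012488 (12495 CPM), ENSCSAVG00000012483 (8298 CPM) and ENSCSAVG00000012507 (7501 CPM) took ranks 2, 3 and 4 in the matrix, ENSCSAVG00000012501 (6142 CPM) and ENSCSAVG00000012497 (3149 CPM) 6 and 9. ENSCSAVG00000012516 (2075 CPM) and ENSCSAVG00000012511 (1996 CPM) ranked 18 and 20, and ENSCSAVG00000012492 (930 CPM) and ENSCSAVG00000012493 (829 CPM) 64 and 78. Genes 12483, 12488 and 12509 had a count in all 773 cells, and 21 of the 42 members had one in all 31 embryos. At the low end, gene 12495 had 9 counts in 7 cells while its neighbours 12496 and 12497 averaged 20.2 and 3149 CPM.

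The balance inside the run differed between stages. In reads, gene 12509 made up 68.1% ± 3.8 (SD, n = 8 embryos) of the run in zygotes, 55.9% ± 7.2 (n = 3) at the 8-cell stage, 64.8% ± 1.4 (n = 2) at the 16-cell stage and 63.7% ± 0.25 (n = 2) at the 32-cell stage. In UMIs it made up 43.6% ± 5.2 (n = 5) at the 2-cell stage, 56.6% ± 5.2 (n = 3) at the 4-cell stage, 64.6% ± 7.8 (n = 3) at the 64-cell stage and 66.8% ± 7.1 (n = 3) at the 110-cell stage. The 2-cell embryos, at 35.6% to 48.4%, did not overlap the 4-cell embryos, at 50.9% to 61.2%. Genes 12507 and 12483 took 13.5% ± 2.6 and 13.3% ± 3.4 of the run in 2-cell embryos. They took 9.85% ± 0.86 and 10.1% ± 1.03 at the 4-cell stage, and 3.5% ± 0.55 and 7.0% ± 2.3 at the 64-cell stage.

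The share of the run in whole embryos was followed over the stages. In reads, the zygotes held between 16.4% and 24.9% (median 22.1%, n = 8). The 3 embryos at the 8-cell stage held 15.4%, 18.7% and 16.7%, the 2 at the 16-cell stage 14.4% and 13.5%, and the 2 at the 32-cell stage 12.7% and 12.3%. The means were 21.6%, 17.0%, 13.9% and 12.5%, and the ranges of the 8-, 16- and 32-cell stages did not overlap, while that of the zygotes overlapped the 8-cell stage. In UMIs, the 5 embryos at the 2-cell stage held 9.53%, 8.14%, 7.07%, 5.12% and 7.22% and the 3 at the 4-cell stage 4.92%, 5.22% and 4.42%. Later, the 64-cell embryos held 6.09%, 4.73% and 10.8% and the 110-cell embryos 9.54%, 5.14% and 5.76%, so that 1 embryo of each stage held more than 1.5 times the share of the others. Per the labels' protocols, the number of cDNA amplification cycles increased with each stage between 2 and 64 cells, where the pair cannot be told apart, and was the same for 1 and 2 cells and for 64 and 110 cells. Since a share is relative, a higher value can come from more RNA of the run or less of other genes.

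**Figure D2:**
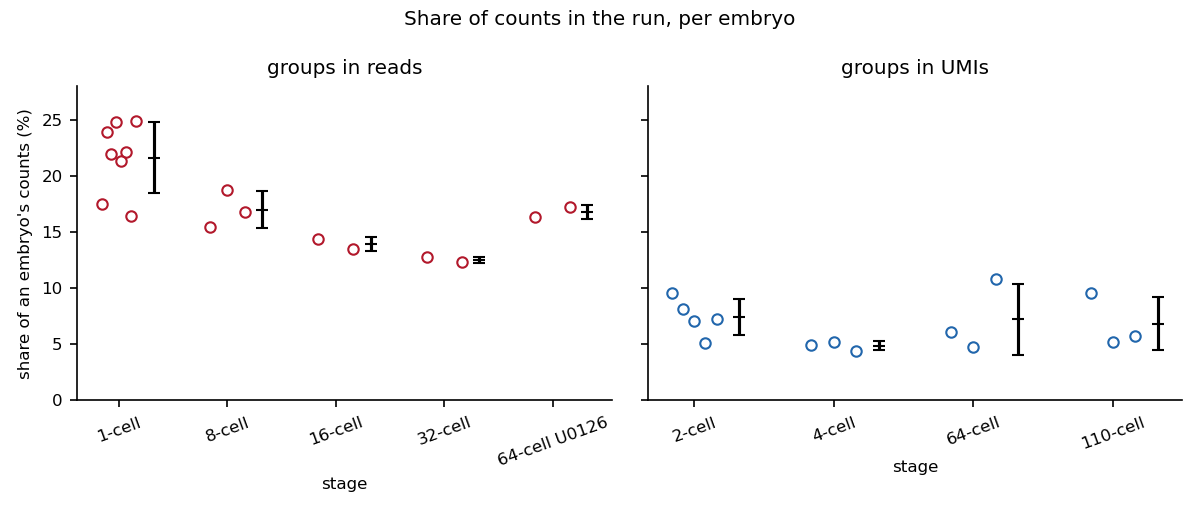
Share of an embryo's counts in the run (%), 1 circle per embryo, with the mean and SD beside each stage; the groups in reads are on the left and those in UMIs on the right. Shares in reads are lower at the 32-cell stage, near 12.5%, than in zygotes, near 21.6%, and the 2 kinds of count are not comparable with each other.

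Gene by gene, few members passed the test between successive stages, and 28 of the 42 passed the filter on low counts. Between zygotes and 8-cell embryos 6 members fell and none rose (edgeR quasi-likelihood test, Benjamini-Hochberg adjusted p under 0.05 over 6441 genes), against 16.0% of all genes tested that fell, so this count was close to the background. Gene 12509 went from 147204 ± 22644 CPM in zygotes to 94096 ± 3202 in 8-cell embryos, a log2 fold change of -0.79 with an SE of 0.24 (adjusted p = 0.011). Gene 12517 went from 1400 ± 499 CPM to 506 ± 134, a log2 fold change of -1.62 with an SE of 0.32 (adjusted p = 0.00046). The other members that fell were 12486, 12492, 12505 and 12516. Gene 12488, at 18673 ± 6830 and then 17279 ± 3375 CPM, did not pass. These results are from the fit of all untreated embryos. In a fit of the read stages alone, 5 members fell and 1 rose. There, 1154 of 5914 genes tested fell and 1170 rose.

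Between the 8- and 16-cell stages no member was called (0.0932% of all genes in either direction, 5 members at an unadjusted p under 0.05), and none between the 16- and 32-cell stages (0.683%, 0 members at an unadjusted p under 0.05), nor did DESeq2 call any at these steps. As a description, 2 of the 28 members tested had a positive change at the first step. Their median log2 fold change was -0.71 against -0.023 over all genes tested. At the second step 3 of 28 had a positive change, with a median of -0.18 against 0.015. Members share the same few embryos, so their signs are not independent, here and at the other steps. How many of all genes had a positive change is not given. The UMI stages gave the same kind of picture. Between 2-cell and 4-cell embryos edgeR called none of the 28 members (0.140% of all genes, 13 members at an unadjusted p under 0.05). DESeq2 called 5, all lower, among 25 of 6441 genes it called lower. In the edgeR fit, 2 of 28 members had a positive change, and the median log2 fold change was -1.03 against 0.019 over all genes tested. Between 64-cell and 110-cell embryos edgeR called none (0.202%, 1 member at an unadjusted p under 0.05), nor did DESeq2. Here 10 of 28 had a positive change, with a median of -0.25 against -0.0033. The percentages are of genes called after adjustment, and the share of all genes at an unadjusted p under 0.05 is not given.

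Between 4-cell and 64-cell embryos, the longest interval, 4 members rose, 12502, 12516, 12517 and 12519, against 5.01% of all genes tested that rose, and none fell. Of the 28 tested, 25 had a positive change, with a median log2 fold change of 0.95 against 0.035 over all genes tested. These signs are not independent either. Gene 12517 stood at 75.9 ± 9.3 CPM at the 4-cell stage and 501 ± 174 at the 64-cell stage (log2 fold change 2.75, SE 0.44, adjusted p = 0.00024), and gene 12516 at 454 ± 72.6 and 1155 ± 328 (1.37, SE 0.29, adjusted p = 0.0028). Gene 12509, with 25027, 30102 and 27059 CPM and then 43894, 26695 and 70522, overlapped between these stages and did not pass (0.82, SE 0.28, adjusted p = 0.058). The count of 4 fell to 2 without the first embryo of the 4-cell stage and was 8 with DESeq2.

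Cells of the same embryo differed widely in the run. At every stage from 4 cells on, a posterior B class held the highest share, and from the 32-cell stage the endoderm classes were among the lowest. Classes are the authors' own, and how cells were put in them is not given in the sources used here: if genes of the run took part, the p-values for classes are too small. Fate names below are textbook background, and with no gene names they could not be checked against markers.

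The difference was present at the 4-cell stage, the first with separate classes. B cells held 5.60%, 6.45% and 5.85% of UMIs in the run in the 3 embryos and A cells 4.01%, 3.88% and 3.27%, without overlap, a 1.61-fold ratio. Of 17 members that passed the filter 10 were higher in B and none lower, against 0.358% of 4187 genes tested that were higher in B. Those 10 were 10 of the 15 genes of the matrix called higher in B. Gene 12509 stood at 27779, 36874 and 35827 CPM in B cells and 21381, 22775 and 19937 in A cells, a log2 fold change of 0.67 with an SE of 0.09 (adjusted p = 2.4e-12). This count of 10 fell to 5 without the third embryo and to 6 with DESeq2.

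At the 8-cell stage the B4.1 cells held 22.3%, 28.8% and 27.9% of reads in the run and the remaining cells, a class the authors name animal, 10.8%, 12.1% and 11.1%. That class holds 18 cells against 6 of B4.1, so it is larger than the animal side alone. The groups did not overlap, and the ratio was 2.32-fold. Of 30 members that passed the filter 24 were higher in B4.1 and none lower (0.810% of 6666 genes). Their log2 fold changes lay between 1.13 and 1.97, with a median of 1.56, against a median of -0.0047 over all genes tested. Gene 12509 stood at 141367, 138688 and 153720 CPM in B4.1 and at 67708, 60387 and 62266 in the rest. Median totals per cell were 479180 reads in B4.1 and 250463 in the rest; the part of depth in the result was not tested.

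At the 16-cell stage B5.2 cells held 27.3% and 25.4% of reads in the 2 embryos, B5.1 cells 25.7% and 24.4%, A5.1/2 cells 15.3% and 8.85%, and animal cells 9.43% and 9.32%. The B classes lay above the others in both embryos, and A5.1/2 differed most between embryos. B5.1 exceeded A5.1/2 2.15-fold, and 16 of 28 members that passed the filter were higher in B5.1, none lower (0.270% of 6675 genes; 18 genes in all). Gene 12504 differed most among the called members (log2 fold change 2.07, SE 0.44, adjusted p = 0.012), and gene 12509 gave 1.41 (SE 0.32, adjusted p = 0.026).

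At the 32-cell stage sister lineages diverged. B6.2, whose descendants form muscle and mesenchyme, held 27.7% and 25.7% of reads in the run, while its sister B6.1, an endoderm precursor, held 4.51% and 4.01%, a 6.28-fold ratio. B6.3, which gives rise to the heart precursor and the germ line, held 29.3% and 27.6% and its sister B6.4 19.3% and 19.9%. On the anterior side A6.2/4, the precursors of notochord and nerve cord, held 15.6% and 12.8%, and the endoderm precursors A6.1/3 4.59% and 4.60%. Animal cells held 9.24% and 7.38%. In each of these pairs both embryos agreed in direction and the values did not overlap.

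Of the 29 members that passed the filter at this stage, 18 were higher in B6.2 than in B6.1 (0.273% of 6971 genes; 19 genes in all), 17 in A6.2/4 than in A6.1/3 (0.244%; 17 genes in all, so the members were the only genes called) and 7 in B6.3 than in B6.4 (0.502%), and none was lower. The called members lay between 2.51 and 3.37 in log2 fold change in the first pair and between 1.61 and 2.10 in the second. Over all 29 tested, the log2 fold changes lay between 1.45 and 7.65 in the first pair and between -0.19 and 4.12 in the second. Gene 12509 had 177162 and 164786 CPM in B6.2 and 28435 and 24852 in B6.1 (3.06, SE 0.11, adjusted p = 4.1e-24). Gene 12488 had 29168 and 29524 CPM in B6.2 and 5587 and 4428 in B6.1 (2.94, SE 0.12, adjusted p = 3.2e-21). The proportion of the run in gene 12509 hardly varied among the 7 classes, from 62.1% in B6.4 to 64.6% in A6.1/3. The count of 7 for B6.3 was 12 with DESeq2 and 13 without the filter on low counts.

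**Figure D3:**
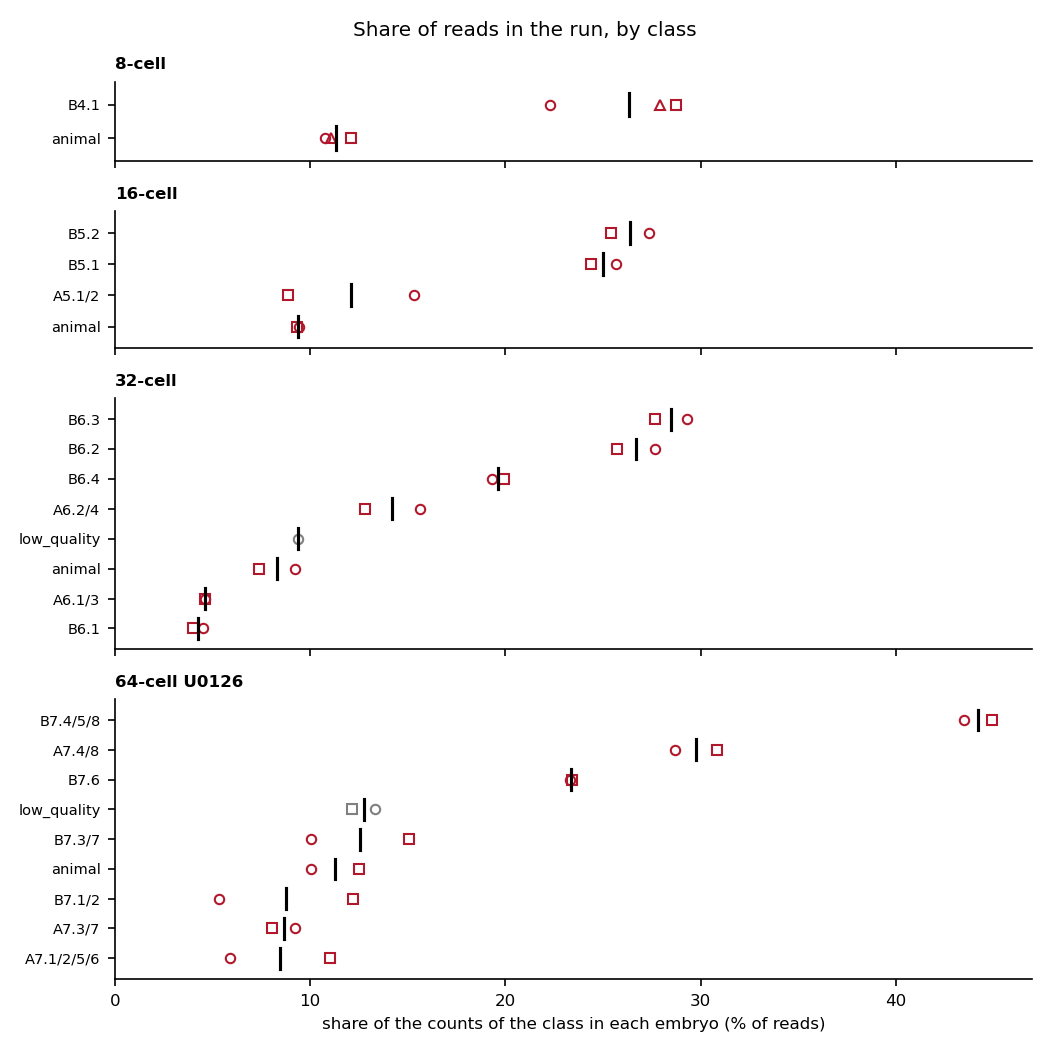
Share of reads in the run for each class of the 8-, 16- and 32-cell stages and of U0126-treated embryos at the 64-cell stage (%), 1 symbol per embryo and a black bar at the mean; cells the authors call low quality are grey. A posterior B class has the highest mean in each panel, but not all B classes are high. Under U0126 A7.4/8, near 29.8%, comes second, above B7.6, near 23.4%. B6.1, near 4.3%, and A6.1/3, near 4.6%, are lowest at the 32-cell stage.

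At the 64-cell stage, in UMIs, the muscle precursors B7.4 held 20.8%, 13.1% and 21.9% and B7.8 14.4%, 11.1% and 25.6% of counts in the run, against 2.51%, 1.81% and 4.09% in the endoderm class A7.1/2/5. No muscle value overlapped an endoderm value, and the ratios were 6.85-fold and 6.03-fold. The nerve cord precursors A7.4/8 held 9.20%, 7.74% and 18.9%, and their notochord sisters A7.3/7 2.09%, 2.41% and 4.01%. The mesenchyme precursors were lower than the muscle sisters from which they separate at this division: B7.3, which also gives secondary notochord, held 9.74%, 4.91% and 6.74%, and B7.7 4.56%, 2.67% and 4.34%. Epidermis held 4.42%, 2.94% and 7.55%, trunk lateral cells A7.6 6.201%, 4.68% and 7.01%, and posterior endoderm B7.1/2 4.43%, 3.76% and 4.33%. The third embryo was the highest in 9 of the 12 classes that all 3 embryos had.

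Of 22 members that passed the filter at the 64-cell stage, 22 were higher in B7.4 than in endoderm (0.949% of 5162 genes) and 19 in B7.8 than in endoderm (1.20%). Low members could pass the filter through the classes where they were high. Without the filter, 24 of 37 were higher in B7.4 and 19 of 37 in B7.8, among 52 and 58 of 10868 genes. Against their mesenchyme sisters, 16 were higher in B7.4 than in B7.3 (0.484%) and 17 in B7.8 than in B7.7 (0.678%). None was lower in any of these. Without the second embryo these last counts fell to 7 and 7, and without the third to 7 and 10.

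The most abundant member differed less than most others between B7.4 and endoderm. Gene 12509 had 134715, 59834 and 104136 CPM in B7.4 and 18874, 9970 and 31705 in A7.1/2/5 (log2 fold change 2.69, SE 0.36, adjusted p = 1.3e-05). Gene 12488 had 26695, 21934 and 26835 CPM against 2204, 2641 and 1671 (3.82, SE 0.53, adjusted p = 2.0e-05), and the median of the 22 members was 3.87 against 0.0040 over all genes tested. Gene 12485 differed most (5.61, SE 0.98). Gene 12509 made up 64.7%, 45.6% and 47.5% of the run in B7.4 and 75.1%, 55.0% and 77.5% in endoderm, lower in B7.4 in each of the 3 embryos. The difference between members was not tested. Without gene 12509 the log2 ratio of shares between B7.4 and endoderm was 3.44 in place of 2.78.

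The order of classes was similar at the 110-cell stage. Muscle precursors B8.7/8 held 26.4%, 16.1% and 19.2% and B8.15/16 28.7%, 12.1% and 16.8% of UMIs in the run, and the endoderm class A7.1/2/5,B7.1/2 4.72%, 2.32% and 1.90%, a 7.33-fold and 6.56-fold ratio without overlap. Single cells of B8.7/8 ranged from 13.8% to 30.4% (median 21.3%, 12 cells) and single endoderm cells from 1.10% to 8.33% (median 2.39%, 29 cells), so that these cells did not overlap either. B8.5, the mesenchyme class descended from B7.3, held 5.97%, 2.78% and 2.60%, and its sister B8.6, a secondary notochord class, 6.13%, 1.70% and 2.66%. Epidermis held between 2.63% and 5.97%, and notochord A8.5/6/13/14 5.08%, 2.67% and 3.59%.

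Of 23 members that passed the filter at the 110-cell stage, 23 were higher in B8.7/8 than in endoderm (1.96% of 5159 genes), 22 in B8.15/16 than in endoderm (1.96%) and 21 in B8.7/8 than in B8.5 (1.32%), and none was lower. Without the filter these counts were 27, 24 and 24 of 37, among 104, 110 and 74 of 10843 genes. Gene 12509 had 180850, 97394 and 108399 CPM in B8.7/8 and 37233, 16179 and 11788 in endoderm (log2 fold change 2.99, SE 0.40, adjusted p = 1.4e-06), the lowest of the 23. The median of the 23 members was 3.77 against 0.0056 over all genes tested. Median totals per cell were 64649 UMIs in B8.7/8, 24234 in B8.15/16 and 43661 in endoderm; the part of depth in the result was not tested.

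**Figure D4:**
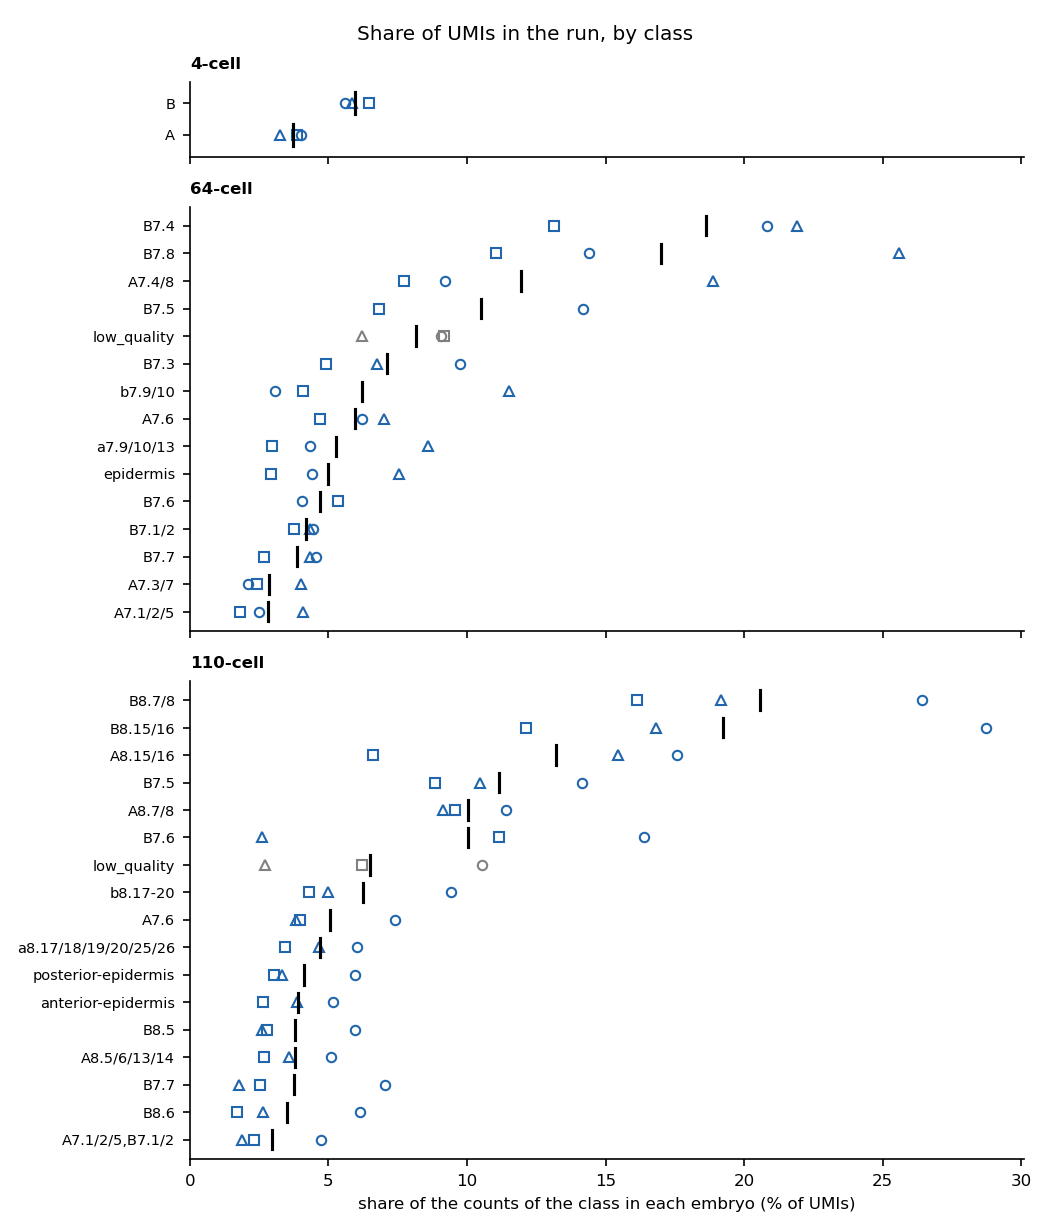
Share of UMIs in the run for each class of the 4-cell and the untreated 64- and 110-cell stages (%), 1 symbol per embryo and a black bar at the mean; cells the authors call low quality are grey. Muscle classes B7.4, B7.8, B8.7/8 and B8.15/16 have the highest means; next come A7.4/8 and B7.5 at the 64-cell stage and A8.15/16, B7.5, A8.7/8 and B7.6 at the 110-cell stage.

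The classes called nerve cord here were also high, and whether they hold nerve cord precursors alone could not be checked. Their comparison with notochord was added after the data were seen. At the 110-cell stage A8.15/16 held 17.6%, 6.59% and 15.4% and A8.7/8 11.4%, 9.57% and 9.15%, each above notochord in every embryo, 3.32-fold and 2.74-fold. Single cells of A8.15/16 varied widely, from 4.15% to 27.5% (median 7.95%, 11 cells). Those of A8.7/8 ranged from 6.87% to 13.7% (median 9.80%, 11 cells). Notochord cells ranged from 1.45% to 7.63% (median 3.54%, 20 cells), so that single cells overlapped. Of the 23 members, 17 were higher in A8.15/16 (0.601% of all genes) and 12 in A8.7/8 (0.582%), and none was lower. The count for A8.7/8 fell to 2 without the first or the second embryo, and that for A8.15/16 to 9 without the first. Gene 12509 passed in A8.15/16 (log2 fold change 1.74, SE 0.38, adjusted p = 0.0094) and gave 1.41 (SE 0.38, adjusted p = 0.055) in A8.7/8.

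The germ line and the heart precursor, sisters from B6.3, were compared last. At the 64-cell stage B7.6, the germ line cell, held 4.05% and 5.34% in the 2 embryos that had it and B7.5, the heart precursor, 14.2% and 6.82%. At the 110-cell stage B7.6 held 16.4%, 11.2% and 2.59% and B7.5 14.1%, 8.86% and 10.5%. B7.6 was lower than B7.5 in both embryos at the 64-cell stage, but higher in 2 of 3 at the 110-cell stage. No member was called by edgeR at either stage (0.232% of all genes at the 64-cell stage and 1.01% at the 110-cell stage, in either direction). At an unadjusted p under 0.05 were 7 of 22 and 3 of 23 members, and the share of all genes at that level is not given. DESeq2 called no member either. These classes hold 3 and 3 cells at the 64-cell stage and 5 and 5 at the 110-cell stage. In the 64-cell comparison the median of all genes tested was itself at -0.21.

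In embryos kept in U0126, in reads, the class B7.4/5/8 held 43.5% and 44.9% of counts in the run, the highest of the treated classes, and A7.1/2/5/6 5.88% and 11.03%, a 5.49-fold ratio. A7.4/8 held 28.7% and 30.9%, its sisters A7.3/7 9.23% and 8.06%, and B7.6 23.3% and 23.4%. Of 31 members that passed the filter 21 were higher in B7.4/5/8 and none lower (0.670% of 7458 genes). Gene 12509 alone took 322376 and 333404 CPM there against 45175 and 79666 in A7.1/2/5/6 (log2 fold change 3.14, SE 0.39, adjusted p = 0.012). Between A7.4/8 and A7.3/7, a comparison added after the data were seen, 6 members were higher (0.147%), none of them among the 10 most abundant, and both DESeq2 and a fit of those classes alone called 18.

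Treated and untreated 64-cell embryos differ in the kind of count and were not tested against each other. To set them side by side, untreated classes were merged as the treated ones are, and each class was divided by the share of its own embryo. B7.4/5/8 stood at 2.45 ± 0.41 times the share of the embryo in untreated embryos (n = 3) and 2.64 ± 0.034 times in treated ones (n = 2). The third untreated embryo had no cell classed as B7.5, so its merged class held B7.4 and B7.8 only. A7.4/8 stood at 1.63 ± 0.12 and 1.77 ± 0.028, A7.3/7 at 0.408 ± 0.089 and 0.516 ± 0.068, A7.1/2/5/6 at 0.552 ± 0.10 and 0.500 ± 0.20, and animal cells at 0.711 ± 0.057 and 0.669 ± 0.079. The ranges of the treated and untreated embryos overlapped for these classes except A7.4/8, where the treated embryos began at 1.75 and the untreated ones ended at 1.74. B7.6 gave 0.897 ± 0.33 (n = 2) and 1.39 ± 0.047, the widest gap of the 8 merged classes. Its ranges did not overlap either, at 0.666 to 1.13 untreated (3 cells) and 1.36 to 1.43 treated (4 cells). The untreated B7.6 cells had a median total of 11918 UMIs, against 36433 for all cells of that stage.

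**Figure D5:**
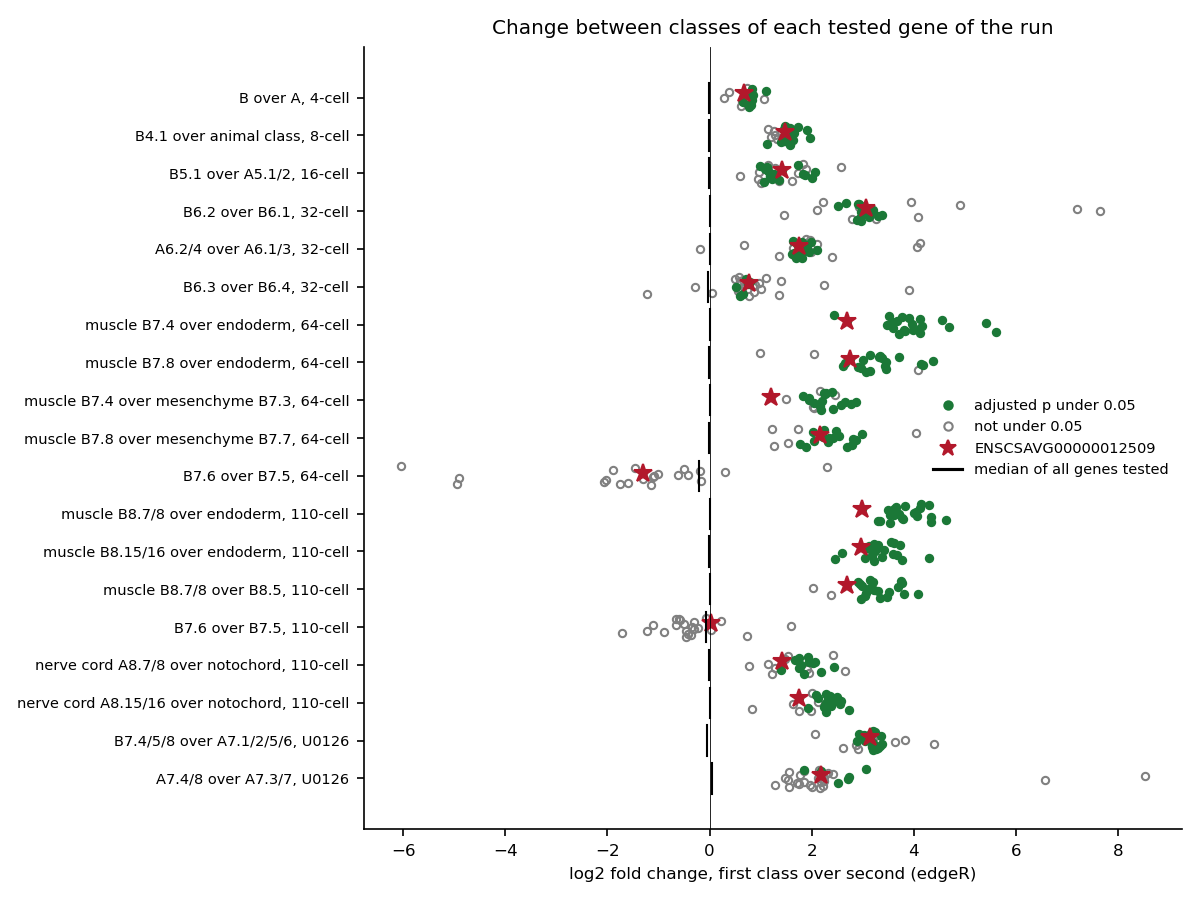
Log2 fold change of each member that passed the filter in each class comparison (horizontal axis), filled where the adjusted p is under 0.05, with gene 12509 as a star and the median of all genes tested as a black bar. In the 17 comparisons other than B7.6 over B7.5, called members lie only to the right of the bar, and gene 12509 lies below the median of the members tested in each muscle comparison of the 64- and 110-cell stages.

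The most abundant members followed the share of the run closely across classes. Over the 88 sums per embryo and class of the untreated 64- and 110-cell stages, with log2(CPM + 10) centred within each embryo, the correlation (Pearson's r) of the 10 most abundant members with the share of the run lay between 0.83 and 0.99, and 24 of the 39 members with varying values exceeded 0.7. The lowest were genes 12480 (r = -0.12) and 12482 (-0.070), with 22 and 3 counts in the whole matrix. Each member is part of that share, so this is a description. None of 11281 genes outside the run exceeded 0.7. The 5 most alike were ENSCSAVG00000002947 (r = 0.68), ENSCSAVG00000004614 (0.63), ENSCSAVG00000004689 (0.62), ENSCSAVG00000005127 (0.61) and ENSCSAVG00000008694 (0.58), which share libraries and depth with the run.

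Those 5 genes were high in the muscle classes but not in the classes called nerve cord here, unlike the run. ENSCSAVG00000002947 had 188 ± 9.6 CPM in B8.7/8, 247 ± 106 in B8.15/16 and 91.2 ± 80.9 in B7.5 at the 110-cell stage, 2.11 ± 3.7 in A8.7/8, 0 in A8.15/16 and 1.60 ± 1.4 in endoderm (n = 3). ENSCSAVG00000004614 had 204 ± 106 CPM in B8.7/8, 468 ± 205 in B8.15/16 and 3.17 ± 5.5 in A8.15/16. ENSCSAVG00000012450, an abundant gene with an identifier below the run that was singled out after its values were seen, had 10051 ± 2100 CPM at the 64-cell stage and did not follow the run (r = -0.062).

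Which members differed between embryos of 1 stage was not the same at each stage. At the 8-cell stage gene 12509 held 9.77%, 9.16% and 9.30% of counts in the 3 embryos and the other members together 5.68%, 9.55% and 7.44%, so the other members varied more. At the 64-cell stage gene 12509 had 43894, 26695 and 70522 CPM, and gene 12483, with 2691, 4065 and 8638 CPM, and gene 12497, with 456, 640 and 2749 CPM, were also highest in the third embryo. At the 110-cell stage gene 12509 had 71319, 33219 and 35112 CPM and gene 12483 6054, 3151 and 3633, both highest in the first embryo. Gene 12488 varied less between embryos than these, with 6030, 6747 and 8455 CPM at the 64-cell stage and 6442, 6337 and 6162 at the 110-cell stage.

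Among cells of 1 class in 1 embryo the share could still range widely, as in the class b8.17-20 of the first 110-cell embryo, from 2.48% to 24.5%. Depth moved little with the share at the later stages: within embryo and class, the correlation of the share with log2 total counts was 0.026 over 172 cells at the 64-cell stage and -0.085 over 297 cells at the 110-cell stage. In reads, this correlation was 0.092 over 24 cells at the 8-cell stage, -0.44 over 32 at the 16-cell stage and -0.21 over 65 at the 32-cell stage. Under U0126 it was 0.0083 over 122 cells. In 2-cell embryos it was -0.80 over 10 cells and in 4-cell embryos -0.19 over 12. The part of depth in the values of these stages was not tested. The 31 cells that the authors call low quality had medians per embryo between 2.68% and 13.3%, above the median of the classed cells in 6 of 9 embryos.

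Totals per cell had medians from 154614 to 306817 reads and from 29297 to 87961 UMIs by stage. The design text states 745 cell profiles, and the deposited table holds 773, of which 742 are in a class. Replicates are embryos, and nothing says whether embryos of 1 stage came from separate parents or days. The p-values therefore speak only for these embryos. For stages they measure against the spread between embryos. For classes, with embryo as a block, they measure against how far class differences varied between embryos, taken over all classes of the stage. In both, edgeR draws the spread of each gene toward that of the other genes tested. With so few embryos, the p-values therefore rest in part on the spread of other genes.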

How the data were processed

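Per the labels' protocols, embryos were dissociated with trypsin and the cells were amplified by Smart-seq2 with barcoded primers. The values used are counts per gene and cell as the authors deposited them, without normalization. Per the submitters' processing notes, CASAVA 1.8, DESeq2 and Seurat were used. For the aligner and the genome build, the entry is: not given in the sources used here. Of 56 GEO entries, 15 repeat another entry, and cells were assigned to embryos and classes by the authors' cell table.

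Counts were summed per embryo, or per embryo and class without low-quality cells. Shares are percentages of those sums, described as mean ± SD over embryos and not tested. Single genes were tested in the full table by the quasi-likelihood test of edgeR 4.0.16 (R 4.3.3; filterByExpr, then TMM scaling, Benjamini-Hochberg adjusted p under 0.05 over all genes tested). Class fits took all classes of a stage with embryo as a block, and stage fits took all untreated embryos. The filter used the same sums, so a low member could pass it through the classes or stages where it was high. The steps were run on simulated counts drawn for each gene independently, which does not cover a block of genes that move together. Alternatives were DESeq2 1.42.0, other scaling, no filter, smaller fits and leaving out each embryo.

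The members and lists were chosen with earlier results of these data known. Named by rule were the 10 members of highest mean CPM, members with no count and members called against the majority. There were none of the last outside the alternatives. Also named by rule were the identifiers just outside the range and the 5 outside genes most correlated with the share. Other members named were singled out after their values were seen, and 3 nerve cord comparisons were added after seeing the data. Cells were picked by hand, and no doublet filter was applied.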

Additional observations from a re-analysis of the deposited data

Results flagged for a closer look

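Gene ENSCSAVG00000012493 stood apart in 1 of the 8 zygotes, with 2688 CPM against 464 to 1360 CPM in the others, a gap to the nearest embryo that exceeded the 95% limit of Dixon's test. It was the only such value among 22 groups of embryos tested, and chance flags about 1 in 20 groups.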

How the results depend on the processing

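No paired analysis was possible because the numbers in the sample titles count libraries and not embryos; class comparisons already block on the embryo. Of the alternatives, 184 of 202 counts of called members stayed within 1.5 times the reported count, and 1895 of 2019 single-gene results kept their direction and side of the threshold, with 0 reversed. DESeq2 called 6 members for B over A at the 4-cell stage (9 genes in all higher) and 12 for B6.3 over B6.4 (71 higher). It called 18 for A7.4/8 over A7.3/7 under U0126 (27 higher). Between 2-cell and 4-cell embryos it called 5 (25 genes lower) and between 4-cell and 64-cell embryos 8 (436 higher). Without the filter on low counts, B6.3 over B6.4 gave 13 and A7.4/8 under U0126 gave 10, and a fit of only those classes gave 18 for the latter. Leaving out 1 embryo gave 5 to 10 for B over A, 7 to 14 for B7.4 over B7.3, 7 to 15 for B7.8 over B7.7, 2 to 9 for A8.7/8, 9 to 13 for A8.15/16, 2 to 6 between 4-cell and 64-cell embryos, and 0 to 1 between 2-cell and 4-cell embryos (1 without the fourth 2-cell embryo). The log2 ratio of shares for B7.6 over B7.5 at the 110-cell stage lay between -0.90 and 0.27 and reversed to 0.27 without the third embryo. Without gene 12509 the log2 ratio was 2.59 for B6.2 over B6.1, 3.44 for B7.4 and 2.86 for B7.8 over endoderm, 1.99 for B7.4 over B7.3, 1.85 for A8.7/8 and 2.25 for A8.15/16 over notochord; within 20 identifiers it was 2.52 for B7.8 over endoderm. Without gene 12509 whole-embryo shares were 6.89% (1-cell), 4.24% (2-cell), 2.11% (4-cell), 7.56% (8-cell), 4.89% (16-cell), 4.55% (32-cell), 2.50% (64-cell), 2.16% (110-cell) and 4.44% (U0126). Within 20 identifiers they were 5.74% (2-cell), 3.85% (4-cell), 14.0% (8-cell), 11.5% (16-cell), 10.3% (32-cell) and 14.1% (U0126), and with only the 10 most abundant members 12.2% (32-cell). As medians of single cells they were 11.8% (8-cell), 10.6% (16-cell), 8.46% (32-cell), 4.32% (110-cell) and 11.3% (U0126). The cause was not tested. Class tests of the 16-cell, 32-cell and U0126 embryos could not be fitted without an embryo, since no residual degrees of freedom remained.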
